A study of Homo sapiens with 96 samples.

Results

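The genes described here are 34 genes of the synaptic vesicle, the active zone, synaptic adhesion and the postsynaptic scaffold, out of 58434 genes in the deposited table. They were chosen by name, from a list of symbols matched to Ensembl identifiers, with no cut on their measured values. Earlier results of these data were known when genes and lists were chosen, so the choice may not be independent of them. By role they are 18 vesicle and release genes, 5 active zone genes, 5 adhesion genes and 6 postsynaptic scaffold genes. The study differentiated neural progenitor cells, derived from the human embryonic stem cell line H9, into mixed cultures of neurons and astrocytes. Some of these cultures were exposed to chemicals studied for developmental neurotoxicity. RNA was sequenced in 96 libraries that form 12 groups of 8.

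The progenitor group (NPC) was harvested at day 0 and the other 11 groups at day 10. The control group received no test compound. Acrylamide (an industrial and dietary toxicant), chlorpyrifos (an organophosphate insecticide), fluoxetine (a serotonin reuptake inhibitor), methyl mercury (an environmental neurotoxicant) and valproic acid (an antiepileptic drug) were each given at a concentration labelled IC5 and at one labelled IC20/100. Stocks of acrylamide and of valproic acid were made in medium. Those of chlorpyrifos, fluoxetine and methyl mercury were made in dimethyl sulfoxide, which came to 0.25% in the cultures. The molar concentrations, the exposure time and the presence of solvent in the controls were not given in the sources used here. All groups share the H9 line, and the labels describe 1 experiment with 8 technical replicates per group. The p-values therefore measure the spread between these libraries and not the spread between differentiations.

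A synapse passes a signal when vesicles loaded with transmitter fuse with the presynaptic membrane at the active zone. Fusion is driven by the SNARE proteins VAMP2, SNAP25 and STX1A and is triggered by calcium through synaptotagmin, while active zone proteins such as RIMS1, BSN and PCLO hold vesicles and calcium channels in place. Neurexins on the presynaptic side bind neuroligins on the postsynaptic side, where DLG4 (PSD-95), the SHANK proteins and HOMER1 anchor receptors. Many neuronal genes are kept low outside neurons by the repressor REST.

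Promoter windows of 300 bases, from 250 bases before to 50 bases after an annotated start, were taken from RefSeq on GRCh38.p14. Of the 34 genes, 27 had at least 1 window, 50 windows in all. The 4 genes with a window that held both parts of the REST site, CAGCACC and GGACAG on either strand, are shown because they include RPH3A, whose difference from control under valproic acid IC5 exceeded every other exposure value of the 34 genes, and because REST was measured in the same libraries. Each is written 5′ to 3′ in the direction of the gene, with these parts or their reverse complements in capitals.
SYN1: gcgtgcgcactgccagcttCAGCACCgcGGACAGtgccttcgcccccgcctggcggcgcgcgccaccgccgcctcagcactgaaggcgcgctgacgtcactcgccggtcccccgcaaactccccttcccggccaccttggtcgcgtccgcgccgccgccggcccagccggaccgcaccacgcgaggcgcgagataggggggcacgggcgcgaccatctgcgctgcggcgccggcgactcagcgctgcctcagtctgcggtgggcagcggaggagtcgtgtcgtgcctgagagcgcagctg
RPH3A: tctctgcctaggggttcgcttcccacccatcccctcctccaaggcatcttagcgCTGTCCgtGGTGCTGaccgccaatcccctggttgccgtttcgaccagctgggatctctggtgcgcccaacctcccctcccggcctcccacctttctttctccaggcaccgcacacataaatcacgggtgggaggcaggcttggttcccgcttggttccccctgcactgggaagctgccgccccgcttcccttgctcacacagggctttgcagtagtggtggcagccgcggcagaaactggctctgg
UNC13A: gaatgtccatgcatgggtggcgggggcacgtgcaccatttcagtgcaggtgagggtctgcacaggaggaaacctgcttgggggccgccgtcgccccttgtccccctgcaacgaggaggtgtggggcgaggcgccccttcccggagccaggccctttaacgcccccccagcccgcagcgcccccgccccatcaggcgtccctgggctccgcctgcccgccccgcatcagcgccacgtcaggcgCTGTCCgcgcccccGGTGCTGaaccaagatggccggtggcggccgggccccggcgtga
NRXN3: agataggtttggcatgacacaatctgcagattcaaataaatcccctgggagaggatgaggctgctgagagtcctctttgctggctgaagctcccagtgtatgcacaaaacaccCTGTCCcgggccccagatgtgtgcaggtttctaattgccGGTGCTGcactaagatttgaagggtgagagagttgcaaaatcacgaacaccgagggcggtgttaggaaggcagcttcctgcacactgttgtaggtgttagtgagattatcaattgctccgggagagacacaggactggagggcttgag
The SYN1 window lies at chrX:47619808-47620107 and the UNC13A window at chr19:17688305-17688604, both on the minus strand. The RPH3A window lies at chr12:112791498-112791797 and the NRXN3 window at chr14:78403469-78403768, both on the plus strand. In SYN1 and RPH3A the parts stood 2 bases apart, in UNC13A 8 bases and in NRXN3 33 bases. A further RPH3A window, at chr12:112791288-112791587, overlapped the one shown and held the same match.

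Both parts occurred in 5 of the 50 windows (10%), against 1.98% of all 35116 windows of this length. Here and below, the overlapping RPH3A windows with the same match are each counted. By gene it was 4 of the 27 with a window, and the share by gene was not computed over all genes. CAGCACC was found in 26% of the synaptic gene windows and in 7.75% of all windows, and GGACAG in 26% and 20.5%. CAGCACC followed by GGACAG with 2 bases between them, a form searched after the parts had been seen and made up of both, was found in 3 of the 50 windows, those of RPH3A and SYN1, and in 18 of all windows (0.0513%). On both strands the cyclic AMP response element TGACGTCA was found in 4% of the synaptic gene windows against 1.85% of all, GGGCGG in 46% against 45%, and TATAAA in 6% against 11.5%. These are letter matches and not measured binding. REST averaged 931 normalised counts in progenitors and 858 in controls and was called in no comparison.

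Values are normalised counts as deposited. Genes that reached 10 in 8 or more libraries were tested with limma on log2(value + 2), with sequencing run as a term, and all 34 genes met this filter. A gene is said to have risen or fallen where the Benjamini-Hochberg adjusted p over all genes tested was below 0.05, and the size of each rise or fall is a difference on the log2(value + 2) scale. Recovered depth was 9.49 to 29.6 M reads per library, over 6 sequencing runs. Methyl mercury IC20/100 replicate 8 stood apart from its group in 7 of the 34 genes, and results of that group that rest on it are given with and without it. Its deposited values summed to 20.95 M, against 18.11 to 18.99 M in the other day 10 libraries. All day 10 tests shared 1 estimate of spread, so this library also entered the tests of the other groups. In controls the 20 pan-neuronal markers summed to 140386 to 149196 per library, and none averaged below 10. The 12 astrocyte markers summed to 12208 to 14478 in controls and 7248 to 9250 in progenitors, 6 of them rising and 3 falling. Only 1 of the 12, AQP4, averaged below 10 in controls (at 5.41), and GFAP averaged 25.7. In these bulk cultures, fewer cells of a type and less RNA per cell cannot be told apart.

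Levels of different genes were compared per kilobase of merged exon (GENCODE 29 models). In controls VAMP2, the vesicle SNARE, was highest at 2102 normalised counts per kilobase, and SYT11, a synaptotagmin that does not sense calcium, followed at 1428. NLGN2, the neuroligin of inhibitory synapses, stood at 828, the vesicle GTPase RAB3A at 660.5 and the vesicle glycoprotein SV2A at 557. At the other end were SV2B at 3.94, SV2C at 9.68 and the RAB3A effector RPH3A at 10.9. VAMP2 made up 22.8% of the summed level of the 34 genes per kilobase and SYT11 15.5%. Among paralogues, VAMP2 stood above VAMP1 (121), SYT11 above SYT1 (339) and SYT4 (264), and NLGN2 above NLGN3 (300.1) and NLGN1 (33.3).

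Control cultures were first compared with the progenitors they came from. Most synaptic genes were higher at day 10: of the 34, 24 rose, 5 fell and 5 did not pass the test. The called share was 85.3%, against a background of 70.7% of all 18063 genes tested (33.9% higher and 36.8% lower), and the median log2 fold change was 0.90 against -0.01 for all genes. All 29 called genes had the same direction in every sequencing run. The genes that fell were CPLX1, HOMER1, NLGN1, RIMS2 and SYT1, and those not called were CPLX2, BSN, UNC13A, NLGN3 and SHANK3. Over the same step 12 of 12 dividing cell markers fell, with a sum per library of 42283 to 47479 in progenitors and 16079 to 20847 in controls. Of 20 pan-neuronal markers 15 rose and 3 fell, with a sum of 101283 to 109003 in progenitors. The astrocyte marker sum was higher in controls, as given above. The 8 oligodendrocyte lineage markers summed to 4247 to 4634 in progenitors and 10448 to 11720 in controls, although of 7 tested 1 rose and 4 fell. Of 8 mesenchymal markers tested 6 fell and 0 rose, the sum over 9 being 3625 to 4840 and 1669 to 2161. The 12 progenitor markers summed to 107056 to 113848 and 101109 to 108401, with 5 higher and 7 lower. The part of these shifts in the synaptic gene results was not tested.

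**Figure D1:**
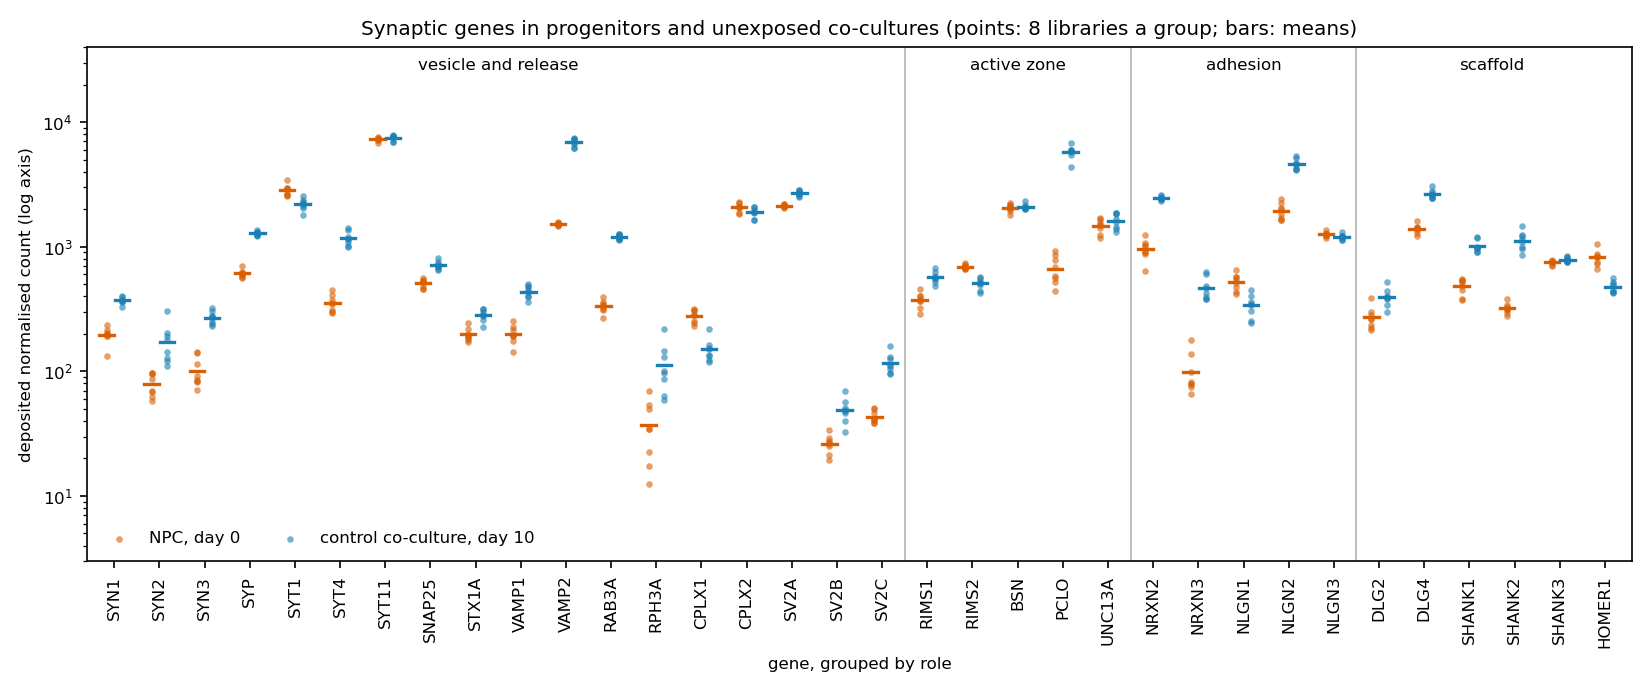
Deposited normalised counts (log axis) of the 34 genes in the 8 progenitor and 8 control libraries, grouped by role, 1 point per library. PCLO, NRXN3 and VAMP2 show the widest gaps, with control means of 5748, 469.5 and 6870 against 668, 99.2 and 1521 in progenitors.

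Of the 18 vesicle and release genes 15 rose and 2 fell (94.4% called, against 70.7% of all genes), with a median of 0.97. VAMP2 (chr17:8159149-8163546, minus strand) ranged from 1475 to 1566 in progenitors, with a median of 1513, and from 6155 to 7440 in controls, with a median of 6928. The groups did not overlap, and the log2 fold change was 2.16 (SE 0.05, adjusted p = 4.78e-12). A protein-coding gene model on the same strand overlaps VAMP2 and averaged 65.6 in controls, so the split of reads between them is uncertain. RAB3A, which steers vesicles to the membrane, rose by 1.83 (SE 0.06), from 334 ± 37.2 (SD, n = 8) to 1201 ± 53.2 (SD, n = 8). SYT4, a synaptotagmin of dense-core vesicles, rose by 1.77 (SE 0.11), and its groups did not overlap either. VAMP1 rose by 1.13 (SE 0.12).

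The synapsins, which tether vesicles to each other, all rose. SYN3 (chr22:32512552-33058372, minus strand) went from 101 ± 27.8 (SD, n = 8) to 270.3 ± 30.5 (SD, n = 8), a log2 fold change of 1.40 (SE 0.12), SYN1 rose by 0.91 (SE 0.09) and SYN2 by 1.02 (SE 0.20). SYP, the abundant vesicle membrane protein synaptophysin, rose by 1.05 (SE 0.04). The SNAREs of the plasma membrane, SNAP25 and STX1A, rose by 0.46 (SE 0.06) and 0.46 (SE 0.06). TIMP4 lies opposite SYN2 and went from 298 to 0.971, TIMP3 lies opposite SYN3, TIMP1 and ARAF opposite SYN1, and BUD23 opposite STX1A. Whether the counting used strand was not given in the sources used here.

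RPH3A (chr12:112570380-112898881, plus strand), which binds RAB3A on the vesicle, ranged from 12.5 to 70.1 in progenitors and from 59.2 to 218 in controls, with medians of 34.6 and 99.1. The ranges overlapped, and the log2 fold change was 1.56 (SE 0.33, adjusted p = 0.00123). SYT1, the fast calcium sensor, fell by 0.36 on the log2 scale (SE 0.09), from 2839 ± 294 (SD, n = 8) to 2199 ± 226 (SD, n = 8). Complexins clamp and then assist fusion. CPLX1 fell by 0.92 (SE 0.09), its progenitor libraries, at 232 to 316, all lying above the controls at 119 to 220. CPLX2 was at 2067 ± 163 (SD, n = 8) and 1885 ± 171 (SD, n = 8) and was not called (adjusted p = 0.135). The SV2 vesicle glycoproteins rose by 0.32 for SV2A, 0.92 for SV2B and 1.38 for SV2C, and SYT11 by 0.06 with overlapping ranges. For SYT11 between progenitors and controls the call was lost without any one of 5 libraries (adjusted p = 0.0536 to 0.0945).

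Among the 5 active zone genes, 2 rose and 1 fell (60% called, below the 70.7% of all genes), with a median of 0.10. PCLO (piccolo, chr7:82754013-83162930, minus strand) had the highest fold change of the 34 genes. It ranged from 444 to 919 in progenitors, with a median of 632, and from 4355 to 6780 in controls, with a median of 5855. All controls lay above all progenitors, an 8.95-fold difference (log2 3.16, SE 0.15, adjusted p = 2.45e-09). BSN (bassoon), a giant scaffold related to PCLO, was at 2053 ± 149 (SD, n = 8) and 2091 ± 113 (SD, n = 8), a log2 difference of 0.01 (SE 0.05, adjusted p = 0.929). RIMS1, which links vesicles to calcium channels, rose by 0.69 (SE 0.07), and its paralogue RIMS2 fell by 0.44 (SE 0.07). UNC13A, which primes vesicles, was at 1473 ± 189.8 (SD, n = 8) and 1615 ± 222 (SD, n = 8) and was not called (adjusted p = 0.346).

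Of the 5 adhesion genes 3 rose and 1 fell (80% called, against 70.7% of all genes), both neurexins among those that rose. NRXN3 (chr14:78170373-79868290, plus strand) ranged from 66.0 to 178 in progenitors, with a median of 80.2, and from 379 to 627 in controls, with a median of 445. The groups did not overlap, and the log2 fold change was 2.29 (SE 0.20, adjusted p = 7.50e-07). NRXN2 rose by 1.39 (SE 0.10). Of the neuroligins, NLGN2 rose by 1.25 (SE 0.07), NLGN1 of excitatory synapses fell by 0.66 (SE 0.13), and NLGN3 was at 1255 ± 54.1 (SD, n = 8) and 1202 ± 58.8 (SD, n = 8) without a call.

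Of the 6 scaffold genes 4 rose and 1 fell (83.3% called, against 70.7% of all genes). SHANK2, a large scaffold of the postsynaptic density, rose by 1.77 (SE 0.11), from 320.5 ± 29.6 (SD, n = 8) to 1120 ± 189 (SD, n = 8). SHANK1 rose by 1.06 (SE 0.09), DLG4 by 0.89 (SE 0.04) and DLG2 (PSD-93) by 0.58 (SE 0.12). SHANK3 was at 748 ± 27.2 (SD, n = 8) and 786 ± 34.6 (SD, n = 8) and was not called. HOMER1, which joins SHANK proteins to glutamate receptors, fell by 0.81 (SE 0.08), from 819.6 ± 114 (SD, n = 8) to 479 ± 49.5 (SD, n = 8), with no overlap.

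Of 142 further synaptic genes tested in this comparison, 77 rose and 33 fell (77.5% called, against 70.7% of all genes), with a median of 0.33. Other vesicle and release genes were 24 higher and 8 lower of 39, and other active zone genes 14 higher and 1 lower of 19. Adhesion genes were 20 higher and 8 lower of 35, and scaffold genes 14 higher and 8 lower of 30. The 19 endocytosis genes were 5 higher and 8 lower, with a median of -0.14. PPFIA4, a liprin of the active zone, rose by 3.45 (SE 0.12), from a mean of 144 to 1674. SYT7, a slow calcium sensor, rose by 2.89 (SE 0.07) and CBLN1, a secreted partner of neurexins, by 3.66 (SE 0.09). SLC18A3, the vesicular acetylcholine transporter, fell by 3.49 (SE 0.08), from 427 to 36.9.

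Each exposure was next compared with control. Of 340 tests of 34 genes in 10 exposures, 28 were called higher and 66 lower. Over all genes tested, the called share ran from 0.0596% under acrylamide IC20/100 to 42% under acrylamide IC5, as given below for each exposure. All 10 exposures were set against the same 8 controls, so their differences are not independent of one another. In 75 of the 94 calls the direction was the same in all 6 sequencing runs. The median coefficient of variation within a group was 11.6% over the 34 genes. The 34 genes had a median control level of 900 normalised counts against 264 for all genes tested at day 10, so the backgrounds are not matched for level.

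Acrylamide IC5 moved the most synaptic genes, with 6 higher and 15 lower (61.8%, background 42%, with 20.5% higher and 21.5% lower), all 20136 genes tested forming the background, and a median of -0.17. Under acrylamide IC20/100 there were 0 higher and 0 lower with limma, none with edgeR or DESeq2, against a background of 0.0596%, with 0.0497% higher and 0.00993% lower, and 2 genes had an unadjusted p below 0.05. Valproic acid IC5 gave 8 higher and 7 lower (44.1%, background 26.9%, with 14.5% higher and 12.4% lower) and valproic acid IC20/100 gave 0 higher and 2 lower (5.88%, background 2.54%, with 1.17% higher and 1.37% lower). Methyl mercury IC5 gave 1 higher and 12 lower (38.2%, background 10.9%, with 4.85% higher and 6.06% lower). Without replicate 8 of methyl mercury IC20/100 it gave 2 higher and 14 lower (background 14.64%), with SYP, DLG2 and SHANK2 called as well. Methyl mercury IC20/100 gave 1 higher and 7 lower (23.5%, background 15.8%, with 8.21% higher and 7.6% lower), or 1 higher and 6 lower without replicate 8 (background 13.4%). Chlorpyrifos IC5 gave 8 higher and 4 lower (35.3%, background 19.7%, with 9.92% higher and 9.75% lower) and chlorpyrifos IC20/100 2 higher and 7 lower (26.5%, background 14.1%, with 7.06% higher and 7.02% lower). Fluoxetine IC5 gave 2 higher and 4 lower (17.6%, background 11.4%, with 5.47% higher and 5.94% lower) and fluoxetine IC20/100 0 higher and 8 lower (23.5%, background 14.4%, with 6.88% higher and 7.54% lower).

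By gene, 13 were called only lower, 10 only higher, 6 in both directions and 5 in no exposure. The uncalled genes were SYN2, STX1A, SV2B, SV2C and SHANK1. DLG4 was called lower in 8 exposures, SYN3, VAMP2 and NRXN3 each in 6, and PCLO and SHANK2 each in 5. The DLG4 calls covered acrylamide IC5, valproic acid IC5 and every chlorpyrifos, fluoxetine and methyl mercury group, the groups with dimethyl sulfoxide. Most of the SYN3 and NRXN3 calls also lay in groups with this solvent, and its part in these calls was not tested. CPLX1 and SHANK3 were each called higher in 3 exposures and lower in none. The same tally was not made over all genes, so these counts have no background beside them.

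**Figure D2:**
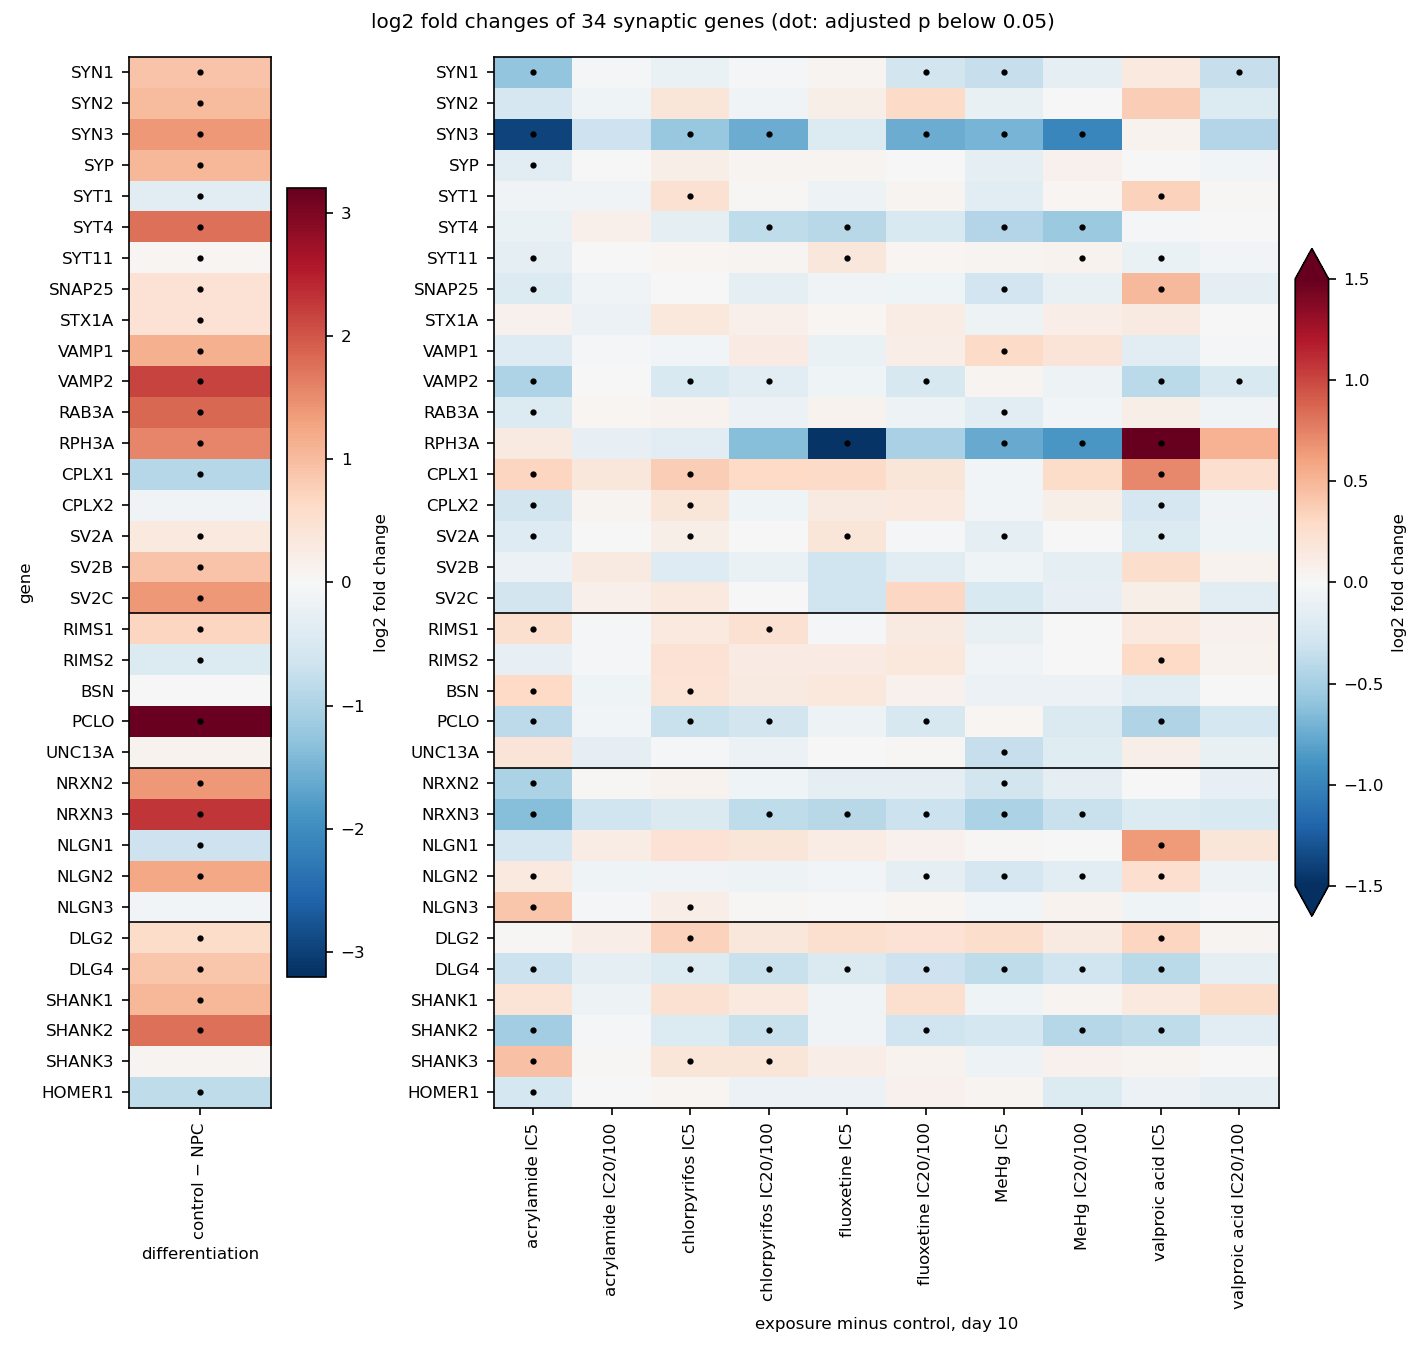
Color shows the log2 fold change of each of the 34 genes for control against progenitors and for each exposure against control, and dots mark an adjusted p below 0.05. The acrylamide IC5 and valproic acid IC5 columns hold 21 and 15 dots and the acrylamide IC20/100 column none.

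Among vesicle genes RPH3A moved furthest, and in both directions. Its 8 control libraries ranged from 59.2 to 218 normalised counts, with a median of 99.1, and its 8 valproic acid IC5 libraries from 575 to 965, with a median of 689, above every other library of the series. The log2 fold change was 2.74 (SE 0.25, adjusted p = 9.37e-15), or 6.67-fold. Under valproic acid IC20/100 RPH3A was at 159.6 ± 42.7 (SD, n = 8), without a call, and the direct test of the concentrations gave 2.21 (SE 0.25, adjusted p = 8.99e-11). Under fluoxetine IC5 it ranged from 20.0 to 86.5, with a median of 34.7. These libraries overlapped the controls, and the log2 fold change was -1.47 (SE 0.25, adjusted p = 9.58e-06), in the same direction in all 6 runs.

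At fluoxetine IC20/100 RPH3A was at 76.6 ± 20.0 (SD, n = 8), and IC5 minus IC20/100 was -0.98 (SE 0.25, adjusted p = 0.0112). It fell by 0.75 under methyl mercury IC5 (adjusted p = 0.041) and by 0.87 under IC20/100 (adjusted p = 0.0112), the latter -0.72 without replicate 8 (adjusted p = 0.0468). The call for RPH3A between fluoxetine concentrations was lost without fluoxetine IC5 replicate 6 (-0.84, adjusted p = 0.0525). The call for RPH3A under methyl mercury IC20/100 was lost without control replicate 3 (-0.69, adjusted p = 0.0548). For RPH3A under methyl mercury IC5 the call was lost without any one of 9 libraries (adjusted p = 0.0554 to 0.176).

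**Figure D3:**
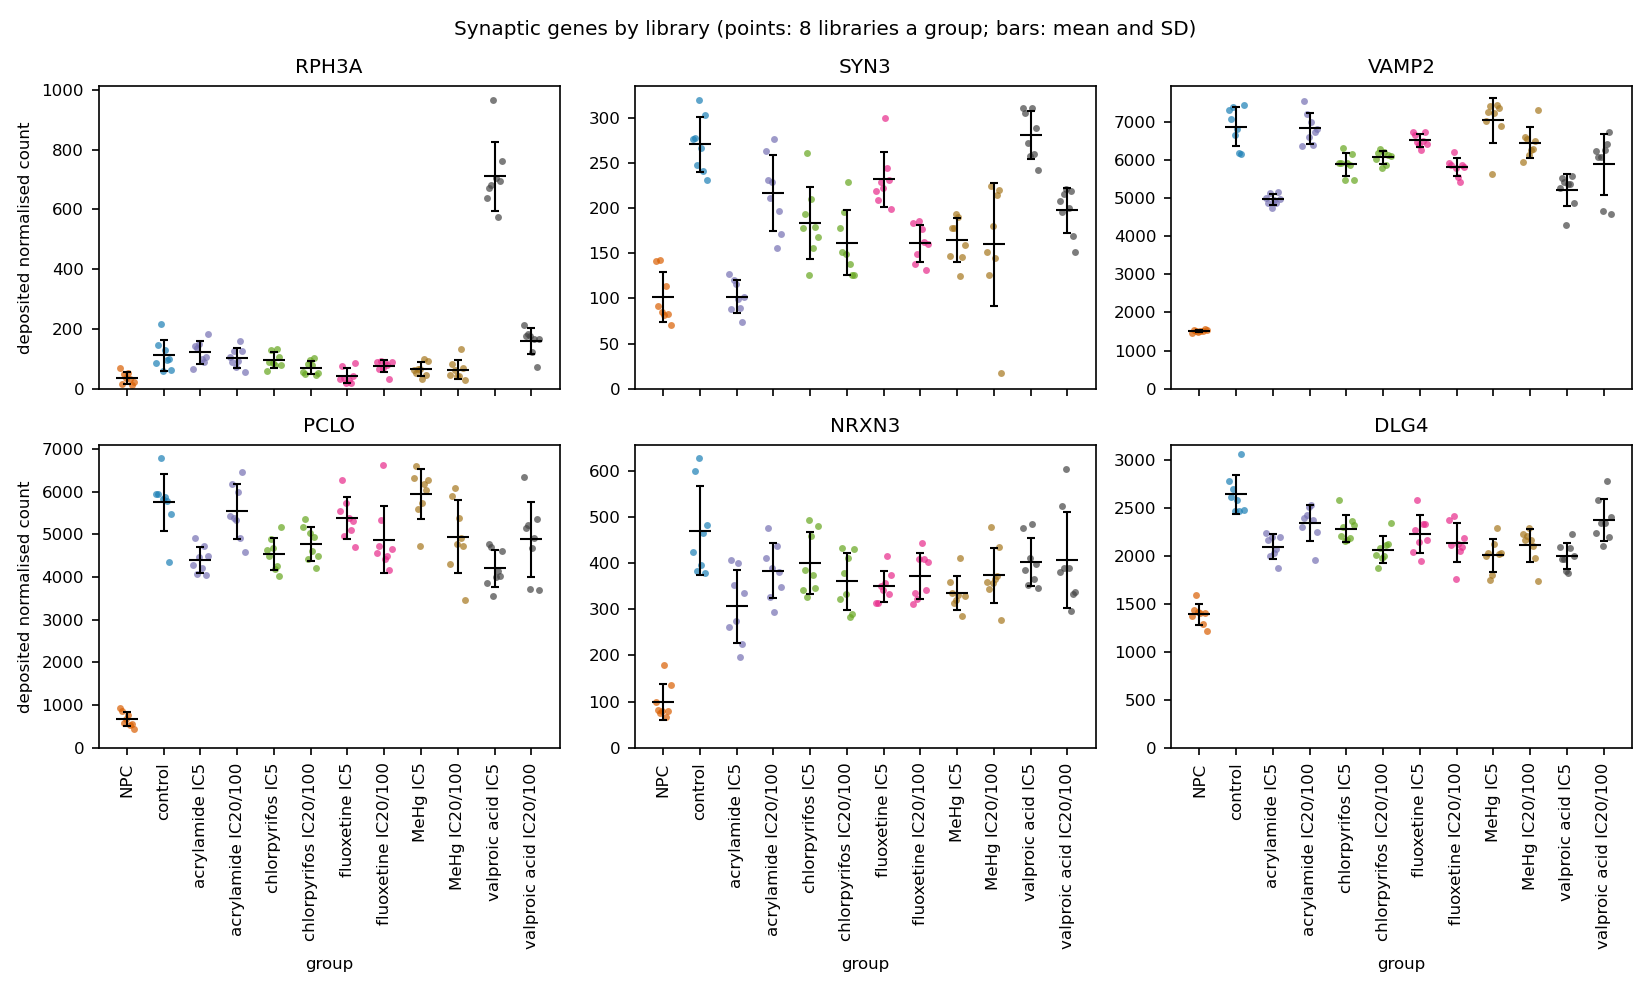
Deposited normalised counts of RPH3A, SYN3, VAMP2, PCLO, NRXN3 and DLG4 in each of the 8 libraries of the 12 groups. RPH3A reaches 575 to 965 in the valproic acid IC5 libraries, SYN3 at acrylamide IC5 (74.0 to 126) lies within the range of the progenitors (71.1 to 142), and DLG4 has a mean below the control mean of 2642 in every exposed group.

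The synapsins SYN1 and SYN3 fell under several exposures. SYN3 ranged from 231 to 319.9 in controls, with a median of 271, and from 74.0 to 126 under acrylamide IC5, with a median of 100.4. These groups did not overlap, and the log2 fold change was -1.39 (SE 0.20, adjusted p = 1.38e-08). SYN3 fell by 0.57 and 0.74 under chlorpyrifos IC5 and IC20/100, by 0.74 under fluoxetine IC20/100 and by 0.70 under methyl mercury IC5. Under methyl mercury IC20/100 it fell by 0.98. There replicate 8 was at 18 and the other 7 libraries at 125 to 224, and without replicate 8 the value was -0.62 (adjusted p = 8.12e-05). Under valproic acid IC5 SYN3 stood at 281 ± 26.8 (SD, n = 8), without a call. The call for SYN3 under chlorpyrifos IC5 was lost without control replicate 4 or chlorpyrifos IC5 replicate 4 (adjusted p = 0.0641 to 0.0745).

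SYN1 fell by 0.59 under acrylamide IC5 (SE 0.09, adjusted p = 7.50e-08), from 371 ± 22.5 (SD, n = 8) to 250.2 ± 24.6 (SD, n = 8), with no overlap. It also fell by 0.27 under fluoxetine IC20/100, by 0.34 under methyl mercury IC5 and by 0.35 under valproic acid IC20/100. Under valproic acid IC5 SYN1 was at 413 ± 41.9 (SD, n = 8), without a call, and IC5 lay above IC20/100 by 0.50 (SE 0.09, adjusted p = 1.35e-05). SYN2 had a median coefficient of variation of 33.4% and no call in any exposure. The call for SYN1 under fluoxetine IC20/100 was lost without control replicate 8, fluoxetine IC20/100 replicate 5 or fluoxetine IC20/100 replicate 7 (adjusted p = 0.0584 to 0.106). The call for SYN1 under valproic acid IC20/100 was lost without valproic acid IC20/100 replicate 8 (-0.31, adjusted p = 0.0712).

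Among SNAREs, VAMP2 ranged from 4747 to 5165 under acrylamide IC5, with a median of 4960, below the whole control range of 6155 to 7440. The log2 fold change was -0.46 (SE 0.05, adjusted p = 1.53e-12). It fell by 0.40 under valproic acid IC5 (SE 0.05), again with no overlap, and by 0.23 under valproic acid IC20/100. The falls were 0.22 and 0.17 under chlorpyrifos IC5 and IC20/100 and 0.24 under fluoxetine IC20/100. VAMP1, its paralogue, rose by 0.29 under methyl mercury IC5 (adjusted p = 0.0491). For VAMP1 under methyl mercury IC5 the call was lost without any one of 13 libraries (adjusted p = 0.0526 to 0.123).

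SNAP25 moved in both directions. Its control libraries ranged from 647 to 814, with a median of 702, and its valproic acid IC5 libraries from 903 to 1087, with a median of 989.6. The groups did not overlap, and the log2 fold change was 0.49 (SE 0.07, adjusted p = 4.77e-09). SNAP25 fell by 0.21 under acrylamide IC5 and by 0.29 under methyl mercury IC5. RAB3A fell in those exposures by 0.20 and 0.17, and SYP fell by 0.15 under acrylamide IC5. The call for RAB3A under methyl mercury IC5 was lost without methyl mercury IC5 replicate 4 (-0.13, adjusted p = 0.0841).

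The synaptotagmins differed in direction. SYT1 rose by 0.35 under valproic acid IC5 (SE 0.07), to 2792 ± 212 (SD, n = 8), and by 0.23 under chlorpyrifos IC5. SYT4 fell by 0.42 under fluoxetine IC5, 0.44 under methyl mercury IC5, 0.38 under chlorpyrifos IC20/100 and 0.56 under methyl mercury IC20/100. In the last group its libraries, at 528 to 925, all lay below the controls at 991 to 1412, and the value without replicate 8 was -0.49 (adjusted p = 0.000312). SYT11 rose by 0.17 under fluoxetine IC5 (SE 0.02), with no overlap, and fell by 0.14 under acrylamide IC5 and by 0.10 under valproic acid IC5. Under methyl mercury IC20/100 it rose by 0.06, and by 0.06 without replicate 8. The call for SYT1 under chlorpyrifos IC5 was lost without control replicate 1 or chlorpyrifos IC5 replicate 1 (adjusted p = 0.0524 to 0.0757). The call for SYT11 under methyl mercury IC20/100 was lost without control replicate 6, methyl mercury IC20/100 replicate 5 or methyl mercury IC20/100 replicate 6 (adjusted p = 0.0529 to 0.0561).

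CPLX1 rose by 0.72 under valproic acid IC5 (SE 0.12, adjusted p = 7.79e-07), where its libraries ranged from 221 to 300.3 against 119 to 220 in controls. It also rose by 0.37 under chlorpyrifos IC5 and 0.33 under acrylamide IC5. CPLX2 fell by 0.28 under acrylamide IC5 and by 0.25 under valproic acid IC5, and rose by 0.18 under chlorpyrifos IC5. The difference between the complexins was not tested. The call for CPLX1 under chlorpyrifos IC5 was lost without control replicate 5 (0.31, adjusted p = 0.0588). The call for CPLX1 under acrylamide IC5 was lost without control replicate 5, acrylamide IC5 replicate 1 or acrylamide IC5 replicate 3 (adjusted p = 0.0646 to 0.0756). For CPLX2 under chlorpyrifos IC5 the call was lost without any one of 5 libraries (adjusted p = 0.0665 to 0.0841).

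SV2A moved little but with small errors. It ranged from 2511 to 2834 in controls and from 2835 to 3187 under fluoxetine IC5, a rise of 0.18 (SE 0.03) without overlap. It fell by 0.20 under acrylamide IC5 and by 0.20 under valproic acid IC5, in each case below every control library. The fall under methyl mercury IC5 was 0.15 and the rise under chlorpyrifos IC5 0.09. SV2C was not called against control, and IC5 lay below IC20/100 of fluoxetine by 0.62 (SE 0.13, adjusted p = 0.000841). The call for SV2A under chlorpyrifos IC5 was lost without control replicate 5 or chlorpyrifos IC5 replicate 5 (adjusted p = 0.0501 to 0.0539).

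In the active zone, PCLO fell under 5 exposures and BSN rose under 2. PCLO ranged from 4355 to 6780 in controls, from 3566 to 4764 under valproic acid IC5 and from 4055 to 4914 under acrylamide IC5, with medians of 5855, 4086 and 4373. The log2 fold changes were -0.45 (SE 0.08, adjusted p = 1.76e-05) and -0.40 (SE 0.09, adjusted p = 7.82e-05), and both groups overlapped the controls. PCLO also fell by 0.34 under chlorpyrifos IC5, 0.28 under chlorpyrifos IC20/100 and 0.24 under fluoxetine IC20/100. BSN rose by 0.30 under acrylamide IC5 (SE 0.08), to 2394 to 2761 against 1991 to 2334 in controls, and by 0.21 under chlorpyrifos IC5. RIMS1 rose by 0.24 under acrylamide IC5 and 0.22 under chlorpyrifos IC20/100, and RIMS2 by 0.30 under valproic acid IC5. UNC13A fell by 0.35 under methyl mercury IC5 (SE 0.10, adjusted p = 0.0159). The call for PCLO under chlorpyrifos IC20/100 was lost without chlorpyrifos IC20/100 replicate 7 (-0.24, adjusted p = 0.0528). For PCLO under fluoxetine IC20/100 the call was lost without any one of 12 libraries (adjusted p = 0.0537 to 0.0861). For BSN under chlorpyrifos IC5 the call was lost without any one of 11 libraries (adjusted p = 0.0506 to 0.0685). All of these fits kept methyl mercury IC20/100 replicate 8, where BSN was at 881.2, the lowest of its group. That library entered the shared estimate of spread. For RIMS1 under chlorpyrifos IC20/100 the call was lost without any one of 8 libraries (adjusted p = 0.0512 to 0.0988).

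Of the adhesion genes, neurexins fell and neuroligins went both ways. NRXN3 ranged from 196 to 406 under acrylamide IC5, with a median of 306, against 379 to 627 in controls, with a median of 445. The ranges overlapped, and the log2 fold change was -0.64 (SE 0.11, adjusted p = 2.07e-06). It fell by 0.47 under methyl mercury IC5, 0.42 under fluoxetine IC5, 0.38 under chlorpyrifos IC20/100 and 0.32 under fluoxetine IC20/100. Under methyl mercury IC20/100 it fell by 0.34, and without replicate 8 it was at -0.28 and not called (adjusted p = 0.0949). NRXN2 fell by 0.48 under acrylamide IC5 (SE 0.07), from 2328 to 2597 in controls to 1481 to 2131, and by 0.27 under methyl mercury IC5. For NRXN3 under fluoxetine IC20/100 the call was lost without any one of 9 libraries (adjusted p = 0.0537 to 0.125). The call for NRXN3 under methyl mercury IC20/100 was lost without control replicate 2, control replicate 4 or methyl mercury IC20/100 replicate 6 (adjusted p = 0.0591 to 0.0891).

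NLGN3 ranged from 1524 to 1664 under acrylamide IC5, with a median of 1588, and from 1135 to 1322 in controls, with a median of 1207. All exposed libraries lay above all controls, a rise of 0.41 (SE 0.04, adjusted p = 7.57e-17), and under chlorpyrifos IC5 the rise was 0.10. NLGN2 rose by 0.25 under valproic acid IC5 (SE 0.04) and by 0.14 under acrylamide IC5. It fell by 0.25 under methyl mercury IC5, 0.14 under fluoxetine IC20/100 and 0.15 under methyl mercury IC20/100, the last -0.15 without replicate 8. NLGN1 rose by 0.64 under valproic acid IC5 (SE 0.15, adjusted p = 0.000578), from 338 ± 70.1 (SD, n = 8) to 523 ± 90.8 (SD, n = 8), its progenitor mean being 522. For NLGN3 under chlorpyrifos IC5 the call was lost without any one of 7 libraries (adjusted p = 0.0508 to 0.109). The call for NLGN2 under fluoxetine IC20/100 was lost without fluoxetine IC20/100 replicate 1 (-0.11, adjusted p = 0.079).

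DLG4 (chr17:7187169-7219841, minus strand), the main scaffold of excitatory synapses, averaged below control in all 10 exposures and was called in 8. Its libraries ranged from 2469 to 3063 in controls, with a median of 2595, and from 1820 to 2230 under valproic acid IC5, with a median of 1984. The groups did not overlap, and the log2 fold change was -0.40 (SE 0.05, adjusted p = 2.08e-09). At IC5 the other changes were -0.38 under methyl mercury, -0.32 under acrylamide, -0.22 under fluoxetine and -0.21 under chlorpyrifos. At IC20/100 they were -0.34 under chlorpyrifos, -0.31 under fluoxetine and -0.30 under methyl mercury, the last -0.26 without replicate 8 (adjusted p = 9.98e-05). ACADVL lies on the opposite strand at this locus and averaged 1854 in controls.

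SHANK2 fell under 5 exposures and SHANK3 rose under 3. SHANK2 ranged from 672 to 870 under acrylamide IC5, with a median of 753, against 857 to 1454 and a median of 1122 in controls. The ranges overlapped, and the log2 fold change was -0.53 (SE 0.10, adjusted p = 1.44e-05). It fell by 0.38 under valproic acid IC5, 0.34 under chlorpyrifos IC20/100, 0.30 under fluoxetine IC20/100 and 0.43 under methyl mercury IC20/100, the last -0.30 without replicate 8 (adjusted p = 0.0113). SHANK3 ranged from 1006 to 1090 under acrylamide IC5, with a median of 1061, above the control range of 749.7 to 840.3. It rose by 0.43 there (SE 0.04, adjusted p = 5.93e-17), and by 0.19 and 0.18 under chlorpyrifos IC5 and IC20/100. DLG2 rose by 0.35 under chlorpyrifos IC5 and 0.32 under valproic acid IC5, and HOMER1 fell by 0.27 under acrylamide IC5. The call for SHANK2 under chlorpyrifos IC20/100 was lost without control replicate 1 (-0.29, adjusted p = 0.057). For SHANK2 under fluoxetine IC20/100 the call was lost without any one of 6 libraries (adjusted p = 0.0541 to 0.101). For HOMER1 under acrylamide IC5 the call was lost without any one of 5 libraries (adjusted p = 0.0531 to 0.0708).

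Direct tests compared the concentrations of each compound, as IC5 minus IC20/100. Acrylamide gave 7 higher and 16 lower (67.6%, background 41.1%, with 20% higher and 21.1% lower) and valproic acid 9 higher and 5 lower (41.2%, background 17%, with 9.73% higher and 7.27% lower). Fluoxetine gave 4 higher and 2 lower (17.6%, background 3.76%, with 2.3% higher and 1.46% lower) and methyl mercury 0 higher and 3 lower (8.82%, background 5.17%, with 2.58% higher and 2.6% lower). For chlorpyrifos there were 0 higher and 0 lower with limma, 0 called with edgeR and 1 with DESeq2, against a background of 0.0497%, with 0.0397% higher and 0.00993% lower, and 7 genes had an unadjusted p below 0.05. Between acrylamide concentrations the lowest values were SYN3 at -1.08 (SE 0.20), SYN1 at -0.56 (SE 0.09) and SHANK2 at -0.50 (SE 0.10). The highest were NLGN3 at 0.43 (SE 0.04) and SHANK3 at 0.41 (SE 0.04). Between valproic acid concentrations RPH3A was highest, followed by SNAP25 at 0.63 (SE 0.07). Fluoxetine IC5 lay above IC20/100 for SYN1 (0.32), SV2A (0.20), VAMP2 (0.18) and SYT11 (0.13). For SYN1 between fluoxetine concentrations the call was lost without any one of 5 libraries (adjusted p = 0.0628 to 0.133). For VAMP2 between fluoxetine concentrations the call was lost without any one of 4 libraries (adjusted p = 0.0531 to 0.0649). Methyl mercury IC5 lay below IC20/100 for SYP (-0.20), SV2A (-0.16) and SHANK3 (-0.15). Without replicate 8 of methyl mercury IC20/100, in which SYP was the highest of its group, these values were -0.12 (adjusted p = 0.0165), -0.15 and -0.17, all 3 still called, and SYT1 (-0.27) and BSN (-0.16) were called lower as well.

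**Figure D4:**
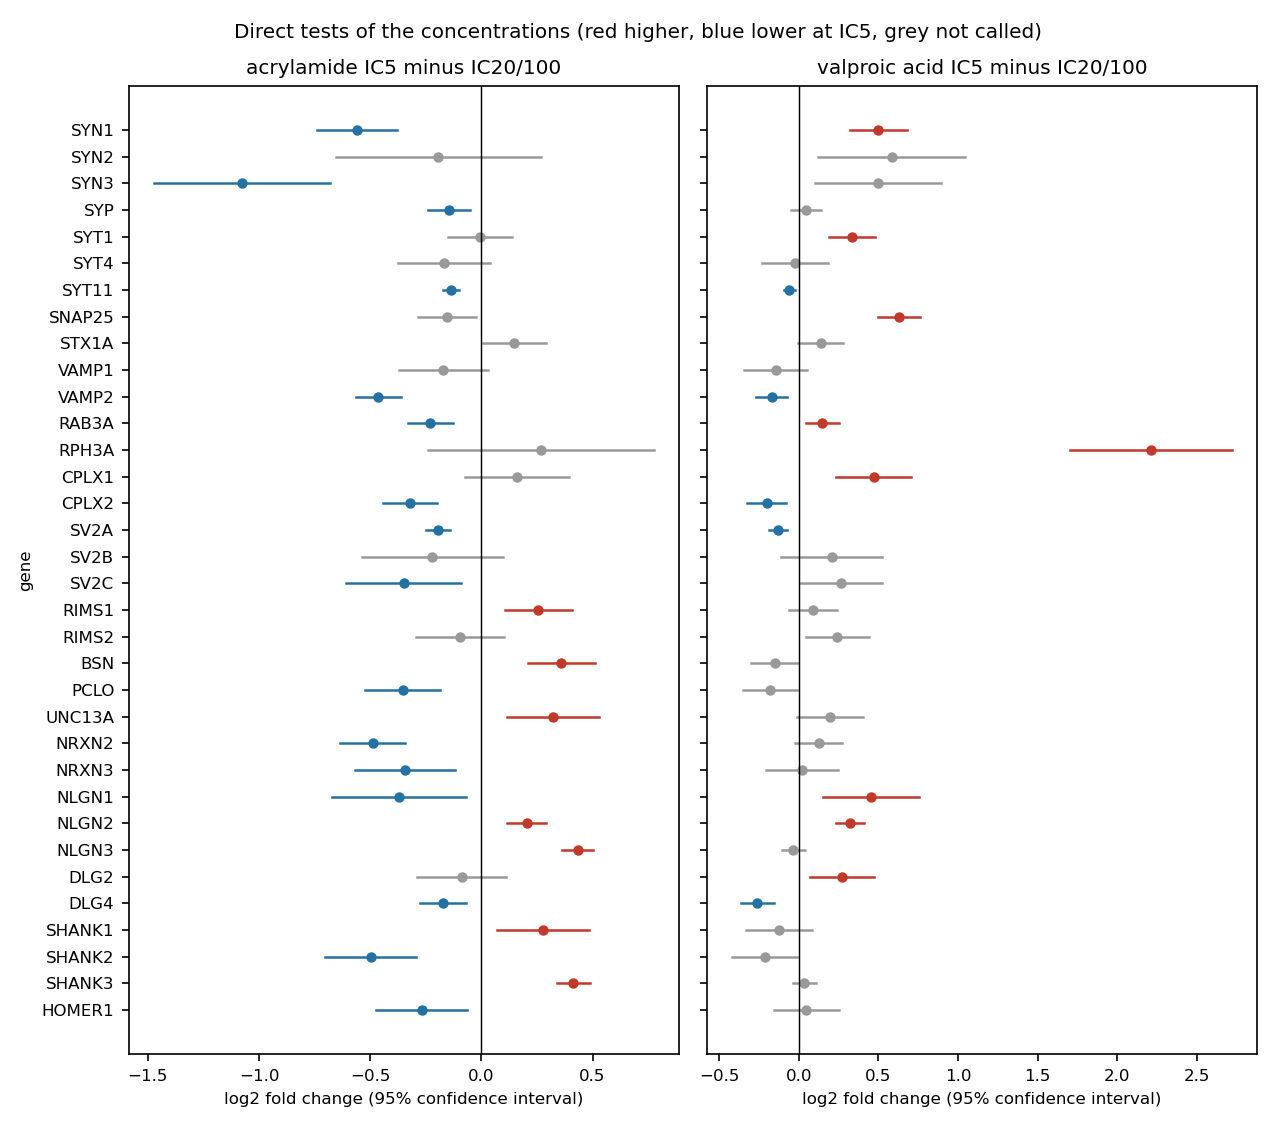
Points show the log2 fold change of IC5 minus IC20/100 for acrylamide and for valproic acid, and bars the unadjusted 95% confidence interval. SYN3 at -1.08 marks the lower end for acrylamide and RPH3A at 2.21 the upper end for valproic acid.

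Marker lists were read in the same libraries. Under acrylamide IC5, 11 of 12 dividing cell markers rose and 0 fell, with a summed level of 26001 to 29839 per library against 16079 to 20847 in controls. In the same group 4 of 20 pan-neuronal markers rose and 6 fell, with a sum of 135321 to 141575 against 140386 to 149196. The 12 progenitor markers summed to 79498 to 87564 under acrylamide IC5 against 101109 to 108401 in controls. Of these 12, 4 rose and 5 fell under acrylamide IC5, with a median log2 fold change of -0.07. The lower sum therefore does not mean that most of these markers fell. Their sums also lay below all controls under chlorpyrifos IC5 (84814 to 91670) and methyl mercury IC5 (93412 to 100764). At IC20/100 the sums did so under chlorpyrifos (90261 to 98553) and fluoxetine (85197 to 94219). The 8 oligodendrocyte lineage markers summed to 10448 to 11720 in controls and lay below all controls in every IC5 group. Their sums were 5687 to 6305 under acrylamide, 5830 to 6693 under fluoxetine, 5961 to 7186 under methyl mercury, 7453 to 8430 under chlorpyrifos and 8298 to 9708 under valproic acid. At IC20/100 they lay below all controls under chlorpyrifos (7524 to 8435), fluoxetine (6894 to 8148) and methyl mercury (5718 to 8078). Of 7 oligodendrocyte lineage markers tested under acrylamide IC5, 3 fell, 0 rose and 4 were not called. A lower sum of this list therefore does not mean that each of its markers fell. Under methyl mercury IC5, 12 pan-neuronal markers fell and 0 rose, with a sum of 125081 to 133704. Under valproic acid IC5, 3 pan-neuronal markers rose and 3 fell, with a sum of 140600 to 152495, and 8 of 12 dividing cell markers rose, with a sum of 20693 to 25693. The dividing cell marker sum under chlorpyrifos IC5, at 20992 to 23318, also lay above all controls. The 12 astrocyte markers summed to 12208 to 14478 in controls and 11598 to 12519 under acrylamide IC5. Under fluoxetine IC5 the astrocyte sum was 10701 to 12024, below all controls. The part of these marker shifts in the synaptic gene results was not tested.

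Of 146 further synaptic genes tested at day 10, acrylamide IC5 gave 18 higher and 50 lower (46.6% called, against 42% of all genes). The total share was near the background, but the direction was not. More of these genes fell than rose, while of all genes 20.5% were higher and 21.5% lower. Valproic acid IC5 gave 30 higher and 23 lower (36.3% called, against 26.9% of all genes, with 14.5% higher and 12.4% lower). Methyl mercury IC5 gave 3 higher and 34 lower (25.3% called, against 10.9% of all genes, with 4.85% higher and 6.06% lower). Chlorpyrifos IC5 gave 13 higher and 23 lower (24.7% called, against 19.7% of all genes, with 9.92% higher and 9.75% lower). Fluoxetine IC5 gave 9 higher and 21 lower (20.5% called, against 11.4% of all genes, with 5.47% higher and 5.94% lower). RIMS3, a short relative of RIMS1, fell from a mean of 4648 in controls under chlorpyrifos, fluoxetine, methyl mercury and valproic acid at IC5, by 0.42, 0.38, 0.44 and 0.42. PPFIA4 fell by 1.53 under acrylamide IC5 (SE 0.15), from 1674 to 599.9. LRRTM2, a postsynaptic partner of neurexins, fell by 0.92 in that group (SE 0.07). SYT2, a calcium sensor like SYT1, rose by 1.11 under valproic acid IC5 (SE 0.07), from 469.5 to 1007, and fell by 0.82 under fluoxetine IC5 and by 0.88 under methyl mercury IC5. DOC2B, another calcium-binding release protein, rose by 0.95 under valproic acid IC5 (SE 0.06), where CBLN1 fell by 0.51.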

How the data were processed

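RNA was measured in 96 libraries prepared with a stranded kit, per the labels' protocols. Per the submitters' processing notes the tools were bcl2fastq, FastQC 0.11.8, MultiQC 1.0, Salmon 1.3.0 and DESeq2 1.30.0, with the build GRCh38. No annotation release was given in the sources used here. Gene values from the authors are normalised counts: the authors deposited 1 table of normalised counts, a signal per gene that equals reads divided by 1 size factor per library. Whole reads were recovered from it for 100% of the positive values in every library, within 0.001 of a read. Recovered depth was 9.49 to 29.6 M reads per library (median 18.9 M). Of 336 library pairs within groups, 0 agreed within counting error.

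Deposited values were tested with limma 3.58.1 (R 4.3.3) on log2(value + 2), with a trended prior, for genes at 10 or more in at least 8 libraries, with run as a term and a threshold of 0.05 on the Benjamini-Hochberg adjusted p. Control against NPC used 16 libraries (18063 genes, 9 residual degrees of freedom), and all other tests shared 1 model of the 88 libraries harvested at day 10 (20136 genes, with 72 residual degrees of freedom). The tests were first tested on simulated data. As alternatives, edgeR 4.0.16 and DESeq2 1.42.0 were run on the recovered reads. For control against NPC edgeR called 6401 genes higher and 6388 lower, DESeq2 6884 and 7343, and limma 6126 and 6644. Other alternatives changed the pseudocount, filter, run term, libraries fitted and scaling. Leaving out each library of the groups compared in turn was added after seeing the data.

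Symbols (58087) and positions (58171) came from GENCODE 29. All 34 genes are described. From each further list, up to 2 called genes with the highest absolute change and a mean of at least 100 were eligible to be named, for control against NPC and each IC5 exposure. Genes and lists were chosen with earlier results of these data known. Equal replicate numbers were not treated as pairs: the correlation of deviations between libraries of equal number had a median of -0.01 to 0.07 over the 16 comparisons, and no comparison had every correlation over 0.1. These medians kept the run differences. In chlorpyrifos IC5, fluoxetine IC20/100 and valproic acid IC5 against control, equal numbers shared a run. With run removed their medians were -0.64, -0.65 and -0.65. In the other comparisons they were 0.092 to 0.146, against 0.066 to 0.083 for unlike numbers. Promoter sequences came from RefSeq, with none used here for SYN3, SNAP25, CPLX1, RIMS2, NRXN2, SHANK1 and SHANK2, and protein sequences were not analysed here.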

Additional observations from a re-analysis of the deposited data

Results flagged for a closer look

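Within a group of 8 libraries, 1 library lay far from the rest in 28 of 408 sets (34 genes in 12 groups), judged by its gap to the nearest library as a share of the range. This is 6.86% of the sets, where chance gives about 5%. Of the 28, 7 belonged to methyl mercury IC20/100 replicate 8, which had SYP at 1957 (highest), RAB3A at 1506 (highest), CPLX1 at 281 (highest), RIMS2 at 324.8 (lowest), BSN at 881.2 (lowest), NLGN1 at 119 (lowest) and SHANK2 at 378 (lowest) of its group, in normalised counts. The other 21 lay in 20 libraries, with no more than 2 genes in any of them. These values were SYN1 at 132.8 in replicate 2 (lowest), SYT1 at 3442 in replicate 3 (highest) among the NPC libraries, and CPLX1 at 220 in replicate 3 (highest), NLGN3 at 1322 in replicate 7 (highest) among the control libraries. Further values were RAB3A at 1219 in replicate 7 (highest) among the acrylamide IC5 libraries, and SV2C at 209.4 in replicate 1 (highest), DLG2 at 558.6 in replicate 4 (highest) among the acrylamide IC20/100 libraries. Others were SYP at 1222 in replicate 4 (lowest), RIMS2 at 818 in replicate 3 (highest), DLG2 at 625.3 in replicate 8 (highest) among the chlorpyrifos IC5 libraries, and RAB3A at 911 in replicate 4 (lowest), NRXN2 at 1781 in replicate 4 (lowest) among the chlorpyrifos IC20/100 libraries. Then followed SYN3 at 299.9 in replicate 5 (highest), UNC13A at 2021 in replicate 1 (highest) among the fluoxetine IC5 libraries, and VAMP1 at 551.8 in replicate 3 (highest), RPH3A at 33.14 in replicate 7 (lowest), PCLO at 6635 in replicate 4 (highest) among the fluoxetine IC20/100 libraries. The last were VAMP2 at 5636 in replicate 4 (lowest) among the methyl mercury IC5 libraries, and UNC13A at 1316 in replicate 7 (lowest), SHANK2 at 1234 in replicate 1 (highest) among the valproic acid IC5 libraries, and SV2B at 91.81 in replicate 1 (highest) among the valproic acid IC20/100 libraries.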

How the results depend on the processing

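Of the 169 calls among the 34 genes in 16 comparisons, 127 were made in the same direction under each of the settings below. Of the same calls, 132 were kept when each library of the groups compared was left out in turn, which was chosen after seeing the data. No called gene changed direction. Pseudocounts of 1 and 10 lost 0 calls, edgeR and DESeq2 1 each, TMM scaling 4, dropping the run term 16, no filter on low values 21 and fits of only the 16 libraries compared 28 (for control against NPC this setting used all 96 libraries, and no call was lost there). With the replicate block in place of the run term, 5 calls were lost and 5 gained, control against NPC gave 23 higher and 6 lower, and the largest shift in the number called in any comparison was 1. Under fluoxetine IC20/100 the number called went from 8 to 4 with no filter and to 5 with no run term, and the cause was not tested. Over all genes the called share there went from 14.42% of 20136 to 5.827% of 41512 with no filter. With no run term it was 12.15%. In fits of 16 libraries, methyl mercury IC20/100 went from 8 to 2, valproic acid IC20/100 from 2 to 0, and methyl mercury IC5 minus IC20/100 from 3 to 0. The called share of all genes tested fell in the same fits. It went from 15.8% to 1.945%, from 2.54% to 0.1214% and from 5.17% to 0.1504%, in the same order. DESeq2 called 1 gene between chlorpyrifos concentrations.

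The libraries left out were those of the groups compared and, for every day 10 comparison, methyl mercury IC20/100 replicate 8. Leaving out 1 of them gave 5 to 8 calls under fluoxetine IC20/100 (5 without control replicate 4, or without replicate 1 or 7 of that group). Under valproic acid IC20/100 there were 1 to 4 calls (4 without methyl mercury IC20/100 replicate 8, 1 without its own replicate 8). Such fits gave 3 to 8 calls for fluoxetine IC5 minus IC20/100 (3 without IC5 replicate 6), and 3 to 5 for methyl mercury (5 without IC20/100 replicate 8 or IC5 replicate 4). Without methyl mercury IC20/100 replicate 8 the called share of all genes also shifted. It was 18.11% under fluoxetine IC20/100 (14.42% with that library) and 4.598% under valproic acid IC20/100 (2.538%). For the direct tests it was 5.841% for fluoxetine (3.764%) and 4.538% for methyl mercury (5.175%). For the other libraries left out, shares over all genes were not tallied. The spread between libraries limits SYN2 and RPH3A most, with median coefficients of variation of 33.4% and 31.8%, the highest of the 34 genes; limits set by depth were not compared between genes.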
